A study of Homo sapiens with 31 samples.

Results

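The mitosis genes are 43 listed genes that carry a cell from entry into mitosis to its division, and they were followed across all 8 treatment groups of the series. Members were the rows of the deposited table whose symbol is a listed gene, and those with a mean of at least 10 normalized reads over the 31 libraries were tested. Of the 43 genes, 41 had a row of their own symbol among the 74834 rows, and all 41 passed that limit, as did 16259 rows in all. BUB1B and CENPA occur only in rows that combine them with another gene and are not among the 41. Poly(A) RNA was sequenced from H460, an established line from a human non-small cell lung carcinoma, after 6 h of treatment, with each sample taken from 2 wells. Control cells were untreated, and the labels name no vehicle (n = 4). B87 was the complex I inhibitor BAY87-2243 at 1 µM (n = 4). DMKG was dimethyl α-ketoglutarate, a cell-permeable form of a tricarboxylic acid cycle metabolite, at 5 mM (n = 4). B87+DMKG joined both agents (n = 4). Nutlin-3, a blocker of the p53-binding pocket of MDM2, was given at 30 µM (n = 3), and Rita, a p53-binding compound described as an MDM2 inhibitor, at 50 µM (n = 4). In B87+DMKG+Nutlin-3 the pair and Nutlin-3 were given together at those doses (n = 4), and B87+DMKG+Rita held Rita in place of Nutlin-3 (n = 4). The labels do not say that replicates are separate experiments, so a p-value here weighs a difference against the scatter of these samples only, and that scatter may be technical.

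Entry into mitosis is driven by cyclin B bound to CDK1, which the CDC25 phosphatases switch on and which Polo and Aurora kinases assist. Kinetochores then attach chromosomes to the spindle, the spindle checkpoint holds CDC20 in check until all are attached, and the anaphase-promoting complex ends mitosis by marking cyclin B and securin for destruction. Many of these genes are transcribed late in the cell cycle through promoter elements called CHR and CCAAT boxes, which the MuvB and NF-Y complexes bind, and p53 is known to lower them through CDKN1A and the DREAM complex. In RNA from whole cultures, fewer cells in mitosis and less RNA per cell cannot be told apart.

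Promoter sequences are shown because the members share these elements and yet moved apart under treatment. RefSeq windows on GRCh38.p14, from 250 bases before to 50 after a start site, were available for 37 of the 43 listed genes, in 47 windows. The CHR core TTTGAA, searched on both strands, was in 66% of the member windows, against 15.2% of all 35116 windows of that length. The CCAAT box, searched as CCAAT on both strands, was in 76.6% of the member windows and 34.6% of all. Of the 37 genes, 24 held both motifs and 35 held at least 1 of them. Below are the 150 bases upstream of the start site of 2 cyclin genes, of the Polo kinase gene PLK1, and of MKI67 and SPC25, which moved furthest up and down with B87+DMKG. Matches of both motifs are in capitals, and a CCAAT box on the opposite strand reads ATTGG. The regions are CCNB1 chr5:69167000-69167149 on the plus strand, CCNB2 chr15:59104996-59105145 on the plus strand, PLK1 chr16:23678739-23678888 on the plus strand, MKI67 chr10:128126424-128126573 on the minus strand, SPC25 chr2:168890431-168890580 on the minus strand.
CCNB1: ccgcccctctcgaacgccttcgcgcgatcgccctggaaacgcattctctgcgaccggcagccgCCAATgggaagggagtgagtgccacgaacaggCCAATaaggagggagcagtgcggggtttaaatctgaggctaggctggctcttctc
CCNB2: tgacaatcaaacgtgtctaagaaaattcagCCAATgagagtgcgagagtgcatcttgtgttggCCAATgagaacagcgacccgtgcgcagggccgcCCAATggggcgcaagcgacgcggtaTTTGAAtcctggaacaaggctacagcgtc
PLK1: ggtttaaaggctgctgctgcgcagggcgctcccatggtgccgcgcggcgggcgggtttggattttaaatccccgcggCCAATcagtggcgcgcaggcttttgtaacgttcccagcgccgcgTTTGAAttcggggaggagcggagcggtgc
MKI67: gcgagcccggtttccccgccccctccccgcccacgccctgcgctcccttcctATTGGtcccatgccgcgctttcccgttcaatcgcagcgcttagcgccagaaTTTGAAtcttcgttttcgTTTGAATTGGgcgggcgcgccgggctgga
SPC25: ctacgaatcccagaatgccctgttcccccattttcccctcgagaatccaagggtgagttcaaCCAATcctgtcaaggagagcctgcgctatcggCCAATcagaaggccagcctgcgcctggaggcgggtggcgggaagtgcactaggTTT
The CCNB1 stretch has 2 CCAAT boxes and no TTTGAA. In CCNB2 and PLK1 a TTTGAA follows the last CCAAT box. MKI67 has 2 TTTGAA matches, the nearer of which overlaps an inverted CCAAT box. The 3 capitals that end the SPC25 stretch begin a TTTGAA that runs past the start site. Among members with a window, TTTGAA was found in 9 of 13 called higher and 13 of 15 called lower with B87+DMKG. A match is a description of these letters and not a bound site.

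**Figure D1:**
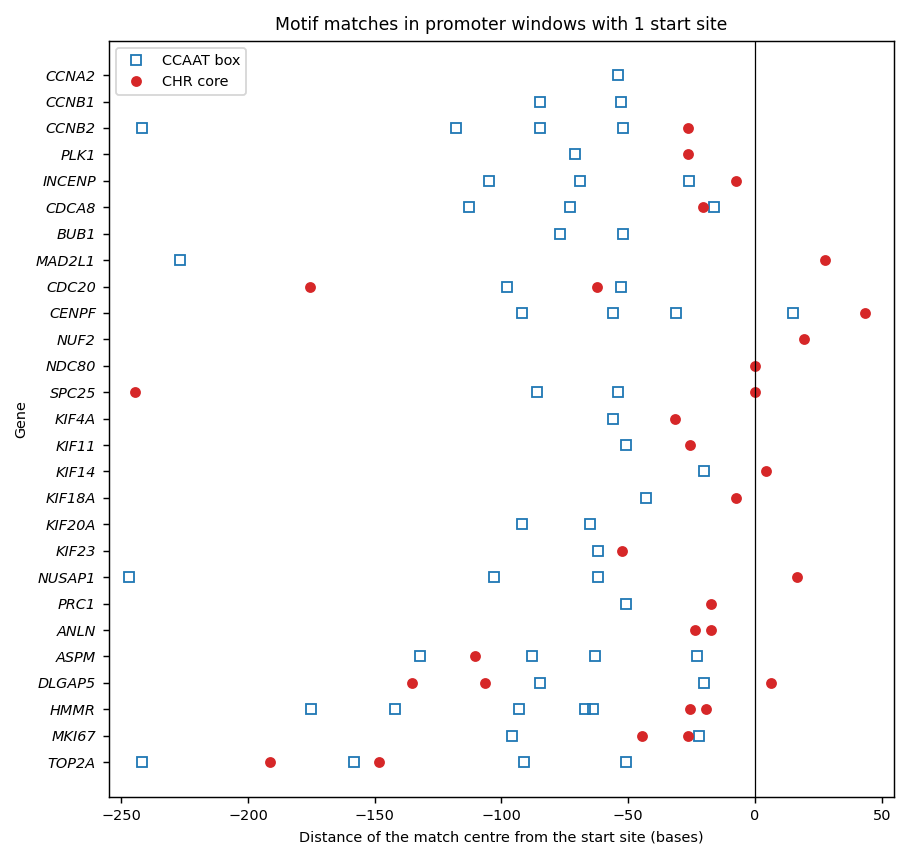
Positions of CHR core (filled circles) and CCAAT box (open squares) matches for genes with 1 promoter window, as the distance of each match centre from the start site in bases. Most CCAAT boxes lie in the 100 bases before the start site, and several CHR cores follow them toward it.

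Whole reads recovered from the table ranged from 33.4 M to 82.5 M per library (median 63.1 M). The share of reads in 22 mitochondrial rows ran from 1.33% to 7.51% and was 1.49% to 2.15% in Control. It reached 5.39% and 7.51% in B87+DMKG replicates 1 and 2, against 4.21% and 2.24% in replicates 3 and 4. It was also uneven in Nutlin-3 (2.42%, 4.33% and 5.39%) and in Rita (2.69% to 2.93% in replicates 1 to 3 and 4.76% in replicate 4). These libraries stand apart for several members, and some results that rest on them, but not all, are given with and without them. Of 6 epithelial markers, 5 had a mean of at least 10, with a summed level of 205760 to 417480 normalized reads, and CDH1 was below it. The fibroblast markers summed to 745 to 1391 (4 of 6 above the limit), the leukocyte markers to 58.2 to 276 (1 of 6) and the endothelial markers to 0 to 66 (1 of 4).

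In untreated cells the members spanned a wide range of levels. Per kilobase of the longest GENCODE v29 transcript, the mean Control level was highest for PTTG1, the securin that holds separase inactive (12941 normalized reads per kb). UBE2C, the E2 enzyme of the anaphase-promoting complex, followed at 11363 per kb and CCNB1, cyclin B1, at 8013 per kb. At the low end were CDC25C, a CDK1 phosphatase, at 352 per kb and ASPM, a spindle pole protein, at 234 per kb. KIF4B and PTTG2, near copies of KIF4A and PTTG1, reached at most 12.8 and 2.19 normalized reads in any library. Overlapping rows exist for 9 members, among them TOP2A with RARA and CCNA2 with EXOSC9, and whether the authors counted by strand is not given in the sources used here, so these values are less certain. Only for FOXM1 and CDC25C was the overlapping row higher than the member. FOXM1 had a mean of 3178 against 6290 for RHNO1 // TULP3, with 898 bases shared. CDC25C had 812 against 2061 for FAM53C, with 821 bases shared.

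With B87 alone no member was called, where called means a limma adjusted p under 0.05 over all 16259 rows (all rows: 0.0431% called, or 7, with 0.0308% higher and 0.0123% lower). Fold changes are on the log2(normalized reads + 1) scale, and ± after one is its standard error. Among the members they ran from -0.20 to 0.16. CCNB1 was at 18003, 18235, 19184 and 22054 with B87, against 16022, 17438, 19347 and 16715 in Control, and the groups overlapped. B87 replicate 4, the shallowest library, was the highest of its group for CCNB1, CDK1, TTK and CCNA2.

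DMKG alone changed members by small amounts. It raised 6 and lowered 11 of the 41, or 41.5%, which is close to the 41.4% called among all rows (19.6% higher and 21.8% lower). The largest fall was in NDC80, a kinetochore protein that grips microtubules: 1772, 1645, 1708 and 1620 normalized reads with DMKG against 2384, 2411, 2297 and 2374 in Control (log2 fold change -0.49 ± 0.08, limma adjusted p = 9.5e-06). Every DMKG library was below every Control library. BIRC5, the survivin subunit of the chromosomal passenger complex, fell by 0.34 ± 0.06, also without overlap. Among the rises, ANLN, an actin-binding protein of the cleavage furrow, was up by 0.39 ± 0.13 and PRC1, which bundles the central spindle, by 0.30 ± 0.08. CDK1, CCNB1 and MKI67 were not called, with log2 fold changes of 0.06 ± 0.07, 0.04 ± 0.07 and 0.06 ± 0.14. Without DMKG replicates 3 and 4 only 7 members were called, all lower, and PRC1 was at 0.15. In that setting 5023 of the 16259 rows were called, 2126 of them higher. Scaling every library to an equal total made the split 1 higher and 17 lower, and with quantile normalization 3 and 12. Among all rows called, 2089 of 6603 were higher with equal totals (median of all rows -0.08) and 3232 of 6689 with quantile normalization.

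B87+DMKG changed most members, and in both directions. Of the 41 genes, 16 rose and 18 fell (82.9%, against 61% of all rows, 30.2% higher and 30.8% lower), and the median member stood at -0.07 against 0.00 for all rows. MKI67, the Ki-67 proliferation antigen that coats mitotic chromosomes, rose most. Its values were 64269, 69372, 49692 and 49092 with B87+DMKG against 29741, 20944, 22513 and 24037 in Control (log2 fold change 1.25 ± 0.14, limma adjusted p = 3.9e-09). All 4 treated libraries were above all Control libraries, and without B87+DMKG replicates 1 and 2 the change was 1.04. SPC25, a subunit of the NDC80 complex of the kinetochore (hg19 chr2:169727402-169746955), fell most. It was at 588, 748, 551 and 429 against 1952, 1819, 2169 and 1919 in Control (-1.79 ± 0.14, limma adjusted p = 4.6e-12), and the groups lay far apart.

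Of the 9 entry kinases, cyclins, phosphatases and FOXM1, 5 fell and 2 rose with B87+DMKG, where 30.8% of all rows were lower and 30.2% higher. CDK1 was at 6385, 5464, 6493 and 5958 against 9705, 9990, 10286 and 9644 (log2 fold change -0.71 ± 0.07, limma adjusted p = 2.3e-09). CCNB1 was at 11008, 10419, 11696 and 10323 against 16022 to 19347 (-0.68 ± 0.07), so that neither gene's groups overlapped. CCNA2, cyclin A2, fell by 0.56 and CCNB2, a related mitotic cyclin, by 0.41. FOXM1, a transcription factor of late cell cycle genes, was up by 0.27 ± 0.06 in the same libraries. PLK1 was not called (0.11 ± 0.09), with 17803, 20515, 16191 and 13900 normalized reads against 14941 to 16518. Its 2 highest libraries were replicates 1 and 2. CDC20, the checkpoint's target, was called higher by 0.17 ± 0.08, but lost the call when any 1 of 5 libraries was left out (Control replicates 1, 3 and 4, B87+DMKG replicates 3 and 4).

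Checkpoint and kinetochore genes split. MAD2L1, which binds CDC20 in the active checkpoint, was at 4074, 3597, 3612 and 3143 against 5524, 5544, 6390 and 6270 (log2 fold change -0.72 ± 0.07). TTK, the checkpoint kinase MPS1, was at 2682, 1833, 2366 and 2250 against 3336 to 3600 (-0.62). BUB1, a partner kinase, rose by 0.25, and PTTG1 rose by 0.68 ± 0.11. No B87+DMKG library of MAD2L1 or TTK reached the Control range. NUF2, a subunit of the same complex as SPC25 and NDC80, fell by 0.79 ± 0.09. NDC80 was down by only 0.22 and lost its call without B87+DMKG replicate 4, at -0.13. CENPE, a kinesin that moves chromosomes to the spindle equator, was at 8338, 7753, 4805 and 4430 against 3823, 2939, 3640 and 4448 in Control. It was called higher (0.73 ± 0.20, limma adjusted p = 0.0026), but the groups overlapped and the call was lost without replicates 1 and 2 (0.33, adjusted p = 0.205). CENPF, a large outer kinetochore protein, rose by 0.58 ± 0.10 and by 0.46 without those replicates.

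Of the 7 kinesin motors, KIF18A, KIF14, KIF11 and KIF4A fell and KIF20A rose with B87+DMKG. The counts by role in that comparison stand against 30.8% of all rows lower and 30.2% higher. KIF18A, which limits the length of kinetochore microtubules, fell by 1.09 ± 0.11, and KIF11, the motor that separates spindle poles, by 0.49. Of the 8 spindle assembly and cytokinesis genes 4 rose (ANLN by 0.67, PRC1 by 0.49, TPX2 by 0.38 and NUSAP1 by 0.38), while ASPM fell by 0.93 ± 0.12 and DLGAP5 by 0.40. TOP2A, the topoisomerase that untangles chromosomes, fell by 0.59 ± 0.13. The mitochondrial share was higher in all 4 B87+DMKG libraries than in any Control library. The same held for every library of Nutlin-3, Rita and both triple treatments. A term for the share therefore cannot be told apart from these treatments, and it may take up part of their effect. With the log2 of the share as a term in the fit, an alternative added after the data were seen, MKI67 was still higher (0.77). CENPE was at 0.11, PTTG1 at 0.25 and ANLN at 0.16. The count became 8 higher and 20 lower, where 4077 of 8380 calls among all rows were higher. NUSAP1 turned to -0.069 with that term and was not called without B87+DMKG replicates 1 and 2 (0.13). Without those 2 replicates 11 members were higher and 18 lower, where 4451 of 9033 calls among all rows were higher. The falls of SPC25, KIF18A, ASPM, NUF2, MAD2L1, CDK1 and CCNB1 were called under every alternative.

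**Figure D2:**
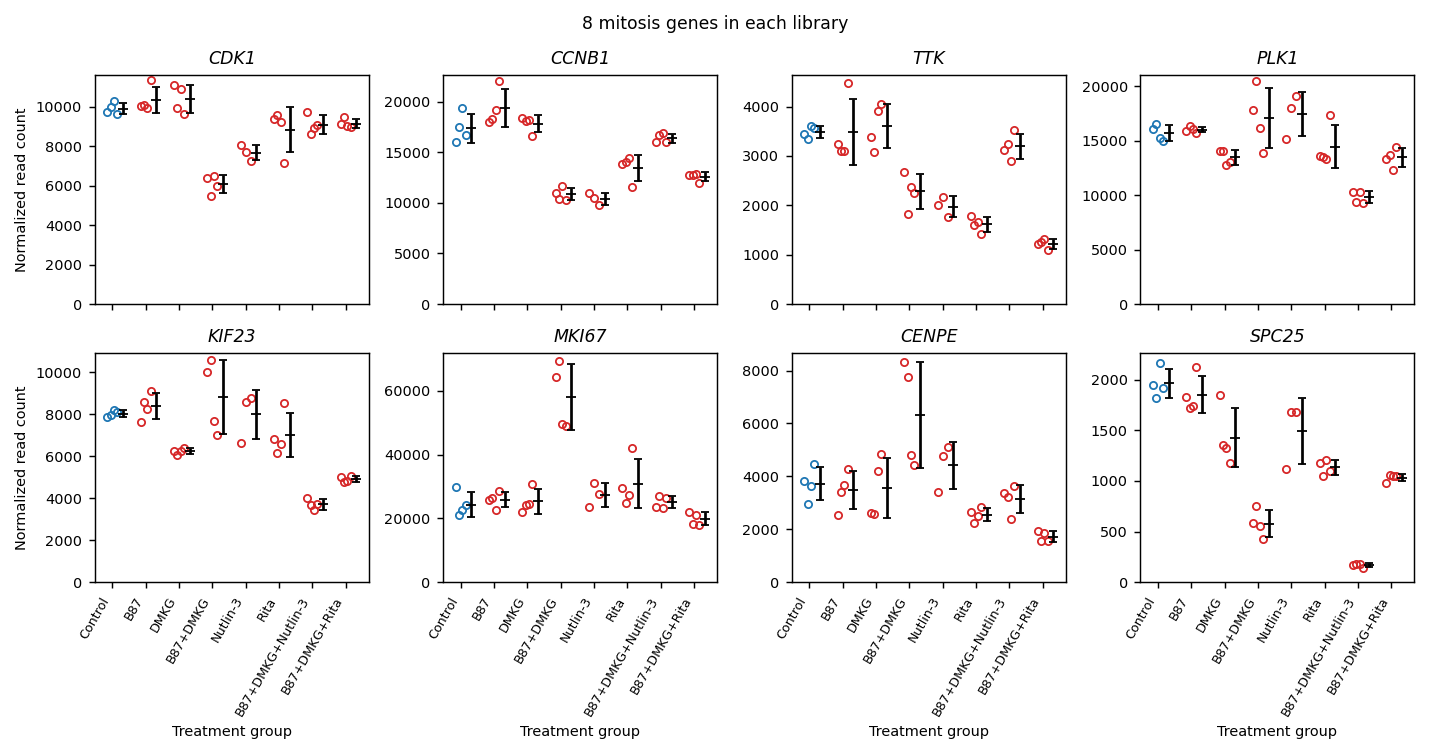
Normalized reads of 8 mitosis genes in each library (open circles; blue Control, red treated), by treatment group, with the group mean and SD as a bar beside the points and linear axes from 0. MKI67 is highest in the 4 B87+DMKG libraries, CDK1 and CCNB1 are low there and higher in B87+DMKG+Nutlin-3, and SPC25 is lowest in B87+DMKG+Nutlin-3.

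Whether the pair did more than its parts was asked in 2 ways that share the B87+DMKG libraries with each other and with the comparison above. Against DMKG alone, B87+DMKG had 16 members higher and 14 lower (73.2%, against 60.1% of all rows, 30.8% higher and 29.3% lower). The split was 9 and 14 without B87+DMKG replicates 1 and 2, 10 and 14 without DMKG replicates 1 and 2, and 7 and 13 with the mitochondrial share as a term. Among all rows, 4541 of 8859, 4270 of 8413 and 4267 of 8428 calls were then higher, in that order. MKI67 was up by 1.19 ± 0.14, and SPC25, KIF18A and NUF2 fell by 1.31, 1.13 and 0.86. Against the sum of the B87 and DMKG changes on the log2 scale, 10 members were higher and 12 lower (53.7%, against 48.8% of all rows, 24.6% higher and 24.1% lower). CCNB1 was below that sum (-0.87 ± 0.10, 95% interval -1.08 to -0.66, limma adjusted p = 3.4e-08), as were CDK1 (-0.83), MAD2L1 (-0.80) and TTK (-0.65). MKI67 was above it by 1.10 ± 0.19 and the chromosomal passenger subunit CDCA8 by 0.50 ± 0.10. CENPE was above it by 0.94 and KIF23, a motor of the central spindle, by 0.42, but neither was called without B87+DMKG replicates 1 and 2 (0.53 and 0.17) or without DMKG replicates 1 and 2 (0.53 and 0.40). KIF23 also lost its call without B87+DMKG replicate 1 alone or replicate 2 alone. Quantile normalization gave 16 higher and 11 lower beyond the sum, equal totals 16 and 9, and the mitochondrial share as a term 3 and 12. Among all rows, 3780 of 7804 calls were higher with quantile normalization, 4769 of 7786 with equal totals and 3446 of 6963 with that term. Without B87+DMKG replicates 1 and 2 the split beyond the sum was 8 higher and 14 lower, where 3804 of 7596 calls among all rows were higher.

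Nutlin-3 alone lowered most of the list. It raised 3 members and lowered 23 (63.4%, against 39.1% of all rows, 18.5% higher and 20.7% lower), with a member median of -0.28 against -0.01 for all rows. CCNB1 was at 10955, 10436 and 9771 normalized reads against 16022 to 19347 in Control (log2 fold change -0.74 ± 0.08, limma adjusted p = 8.5e-09). MAD2L1 was at 3423, 3163 and 3551 against 5524 to 6390 (-0.81 ± 0.07). TTK was at 2007, 2162 and 1754 against 3336 to 3600 (-0.82 ± 0.12). None of these Nutlin-3 libraries reached the Control range. ASPM fell by 0.99, KIF18A by 0.92 and ECT2, which activates RhoA for the cleavage furrow, by 0.71. CDK1 fell less, by 0.37 ± 0.08, and CDC20 by 0.32. The genes called higher were PTTG1 (0.63 ± 0.12), CDC25C (0.34) and KIF20A (0.26). PLK1, MKI67 and FOXM1 were not called (0.14, 0.17 and -0.08). SPC25 was called lower (-0.42), but its 3 libraries were at 1114, 1683 and 1684 and the call was lost without replicate 1 (-0.22) or without Control replicate 3. The library with the lowest mitochondrial share was replicate 1. With that share as a term the calls were 0 higher and 20 lower, where 2066 of 4505 calls among all rows were higher.

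Rita alone also lowered more members than it raised. It raised 3 and lowered 21 (58.5%, against 52.1% of all rows, 25.8% higher and 26.3% lower), with a member median of -0.22 against 0.03. TTK was at 1778, 1598, 1661 and 1419 against 3336 to 3600 in Control (log2 fold change -1.11 ± 0.11, limma adjusted p = 1.4e-09). KIF18A fell by 1.14, KIF14 by 1.03 and KIF11 by 0.95. TOP2A was at 6242, 5476, 5150 and 5291 against 9422 to 12369 (-1.02 ± 0.13), with no overlap. AURKA, the spindle pole kinase, was at 4894, 4841, 4916 and 5075 against 8071 to 8609 (-0.76). CCNB1 fell by 0.37 ± 0.07. CDK1 was not called (-0.17, limma adjusted p = 0.052), and without replicate 4 it was at -0.08. MKI67 was called higher by 0.33 ± 0.14, but replicate 4 was at 41973 and the others at 29412, 24838 and 27209. Leaving out replicate 4 gave 0.17 and no call, and the call was also lost without Rita replicate 1 or Control replicates 2, 3 or 4. PLK1 was likewise highest in replicate 4 (17372 against 13364 to 13578). It was not called with all libraries in the fit and was called lower without that replicate (-0.22). With equal totals 1 member was higher and 33 lower. That scaling moved the median of all rows to -0.15, with 2581 of 8365 calls higher.

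Set directly against each other, Nutlin-3 had 16 members higher and 8 lower than Rita (58.5%, against 51.2% of all rows, 24.8% higher and 26.4% lower). Both compounds are described as acting on the p53-MDM2 pair but were given at different doses (30 and 50 µM), so the differences are between these 2 treatments as given. The passenger kinase AURKB was at 4074, 3526 and 3213 with Nutlin-3 and 5538, 5969, 5988 and 4868 with Rita (log2 difference -0.64 ± 0.09, limma adjusted p = 7.7e-07). CENPE was higher with Nutlin-3 by 0.78 ± 0.22 and KIF14 by 0.54 ± 0.14. CDC25B was lower with Nutlin-3 (-0.58 ± 0.11), as were CCNB1 (-0.37 ± 0.08) and BIRC5 (-0.29 ± 0.07). The groups did not overlap for any of these 6 genes. Leaving out Nutlin-3 replicate 2 reduced the 24 calls to 14, and without Rita replicate 2 they were 16. Calls among all rows went from 8321 to 7208 and 7547 in these settings. PLK1 and CDK1 each lost their call (0.27 and -0.19) when any 1 of 5 libraries was left out: Nutlin-3 replicates 2 and 3 and Rita replicates 1, 2 and 3.

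Adding Nutlin-3 to B87+DMKG moved several members back toward their Control level and left others lower. Compared with B87+DMKG, 15 rose and 16 fell (75.6%, against 58.9% of all rows, 26.5% higher and 32.3% lower). CCNB1 was at 15961, 16671, 16861 and 16032, above the 10323 to 11696 of B87+DMKG (log2 fold change 0.59 ± 0.07, limma adjusted p = 3.5e-08). CDK1 was at 9734, 8631, 8921 and 9091, above 5464 to 6493 (0.58 ± 0.07). MAD2L1 was at 5585, 5321, 4947 and 5447 (0.57 ± 0.07) and TTK at 3118, 3246, 2896 and 3518 (0.49 ± 0.11). For these 4 genes no library overlapped with B87+DMKG, and against Control none was called. MKI67 fell back to 23537, 27049, 23380 and 26244 (-1.20 ± 0.14), within the Control range of 20944 to 29741. CENPE fell by 0.97 ± 0.20 and ANLN by 0.97 ± 0.13. Since these changes and those of B87+DMKG against Control share the B87+DMKG libraries, high or low values there enter both with opposite sign. Without B87+DMKG replicates 1 and 2, MKI67 fell by 0.98, ANLN by 0.72 and CENPE by 0.57. In that setting 14 members rose and 11 fell, where 3630 of 8034 calls among all rows were higher.

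SPC25, already low with B87+DMKG, was at 172, 182, 178 and 142 in B87+DMKG+Nutlin-3 (log2 fold change -1.75 ± 0.14 against B87+DMKG). Against Control it was lower by 3.54 on the log2 scale (-3.54 ± 0.14, limma adjusted p = 1.3e-19), and its highest library was below the lowest of every other group. PLK1 was at 10293, 9385, 10307 and 9253 against 14941 to 16518 in Control (-0.68 ± 0.09). KIF23 was at 4025, 3669, 3412 and 3701 against 7848 to 8193 (-1.12 ± 0.10). Neither gene was called with B87+DMKG or Nutlin-3 alone. KIF23 was called lower with DMKG alone (-0.36), and both genes were called lower with B87+DMKG when the mitochondrial share was a term. Against Control the triple treatment raised 10 members and lowered 17 (65.9%, against 58% of all rows, 28.3% higher and 29.7% lower). TPX2, which activates AURKA on the spindle, rose by 0.59 ± 0.06, CDC25C by 0.70, CDC20 by 0.59 and FOXM1 by 0.46. With equal totals the splits were 5 higher and 21 lower against Control, and 9 and 19 against B87+DMKG. Among all rows, 3039 of 8986 and 3037 of 9533 calls were then higher, with medians of -0.13 and -0.20.

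With Rita added to B87+DMKG, most of the list was lower than in Control. B87+DMKG+Rita against Control raised 4 members and lowered 28 (78.0%, against 60.1% of all rows, 29.4% higher and 30.7% lower), with a member median of -0.34 against 0.01. ASPM was at 854, 672, 912 and 690 against 2102 to 2753 (log2 fold change -1.71 ± 0.12, limma adjusted p = 2.6e-13). TTK was at 1207, 1264, 1317 and 1093 against 3336 to 3600 (-1.52 ± 0.11). AURKA was at 3377, 3375, 3429 and 3442 against 8071 to 8609 (-1.30 ± 0.06). Each of these treated groups lay wholly below Control. KIF18A fell by 1.49, KIF14 by 1.37, TOP2A by 1.24 and KIF11 by 1.12. PTTG1 rose (0.58 ± 0.11), and CDC20 was called higher (0.28), with no call under quantile normalization (0.075) or equal totals (0.024). FOXM1 was called higher at 0.15 ± 0.06, but turned to -0.11 with equal totals and lost the call when any 1 of 4 libraries was left out (Control replicates 3 and 4, B87+DMKG+Rita replicates 2 and 4). CDK1 was not called (-0.12).

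Against B87+DMKG, the addition of Rita raised 8 members and lowered 26 (82.9%, against 67.3% of all rows, 33.1% higher and 34.2% lower), with a member median of -0.47 against 0.00. CENPE was at 1924, 1551, 1867 and 1543 against 4430 to 8338 (log2 fold change -1.83 ± 0.20, limma adjusted p = 3.5e-09), and at -1.43 without B87+DMKG replicates 1 and 2. MKI67 was at 22126, 18175, 20889 and 17999 against 49092 to 69372 (-1.54 ± 0.14). INCENP, the scaffold of the passenger complex, fell by 1.42 ± 0.09 and CENPF by 1.41 ± 0.10. SPC25 went the other way, to 983, 1059, 1045 and 1045 against 429 to 748 (0.86 ± 0.14, limma adjusted p = 3e-06). CDK1 rose to 9120, 9458, 9020 and 8944 (0.59 ± 0.07) and NUF2 by 0.54 ± 0.09. CCNB1 rose by 0.21 ± 0.07, but was at -0.031 with equal totals and at -0.015 with quantile normalization, and was not called without B87+DMKG replicates 1 and 2 (0.19). With equal totals 3 members were higher and 32 lower, where the median of all rows was -0.24 and 3518 of 10762 calls were higher. The split was 6 higher and 24 lower without B87+DMKG replicates 1 and 2, where 4734 of 9760 calls among all rows were higher.

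The effect of each MDM2 inhibitor with B87+DMKG was then compared with its effect without it, in a test of the difference itself. For Nutlin-3 the difference was called in 33 of 41 members, 20 higher and 13 lower (80.5%, against 56.9% of all rows, 26.4% higher and 30.6% lower). It was 1.38 ± 0.10 for MAD2L1 (limma adjusted p = 4e-12), 1.33 ± 0.10 for CCNB1, 1.32 ± 0.17 for TTK and 0.95 ± 0.11 for CDK1. These 4 genes were lower with Nutlin-3 alone and higher when it was added to B87+DMKG. The difference was -1.37 ± 0.20 for MKI67, -1.33 ± 0.21 for SPC25, -1.21 ± 0.15 for KIF23 and -0.93 ± 0.13 for PLK1. With the mitochondrial share as a term 22 members were higher and 8 lower, where 3089 of 6754 calls among all rows were higher. Without B87+DMKG replicates 1 and 2 the members were 22 higher and 11 lower, where 3897 of 8446 calls among all rows were higher. For Rita 11 members were higher and 14 lower (61.0%, against 48.6% of all rows, 24.2% higher and 24.4% lower). SPC25 had the largest positive difference, 1.65 ± 0.20, with a fall under Rita alone and a rise when Rita was added to B87+DMKG. MKI67 had the largest negative one, -1.87 ± 0.19, followed by CENPE (-1.30 ± 0.29), which lost its call with the mitochondrial share as a term (-0.59). With that term 9 members were higher and 7 lower for Rita, where 3252 of 6336 calls among all rows were higher. Without B87+DMKG replicates 1 and 2 the members were 10 higher and 13 lower for Rita, where 3751 of 7420 calls among all rows were higher. With equal totals they were 9 and 18, where 3370 of 7737 calls among all rows were higher. The Nutlin-3 and Rita differences share the Control and B87+DMKG libraries and were not tested against each other.

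**Figure D3:**
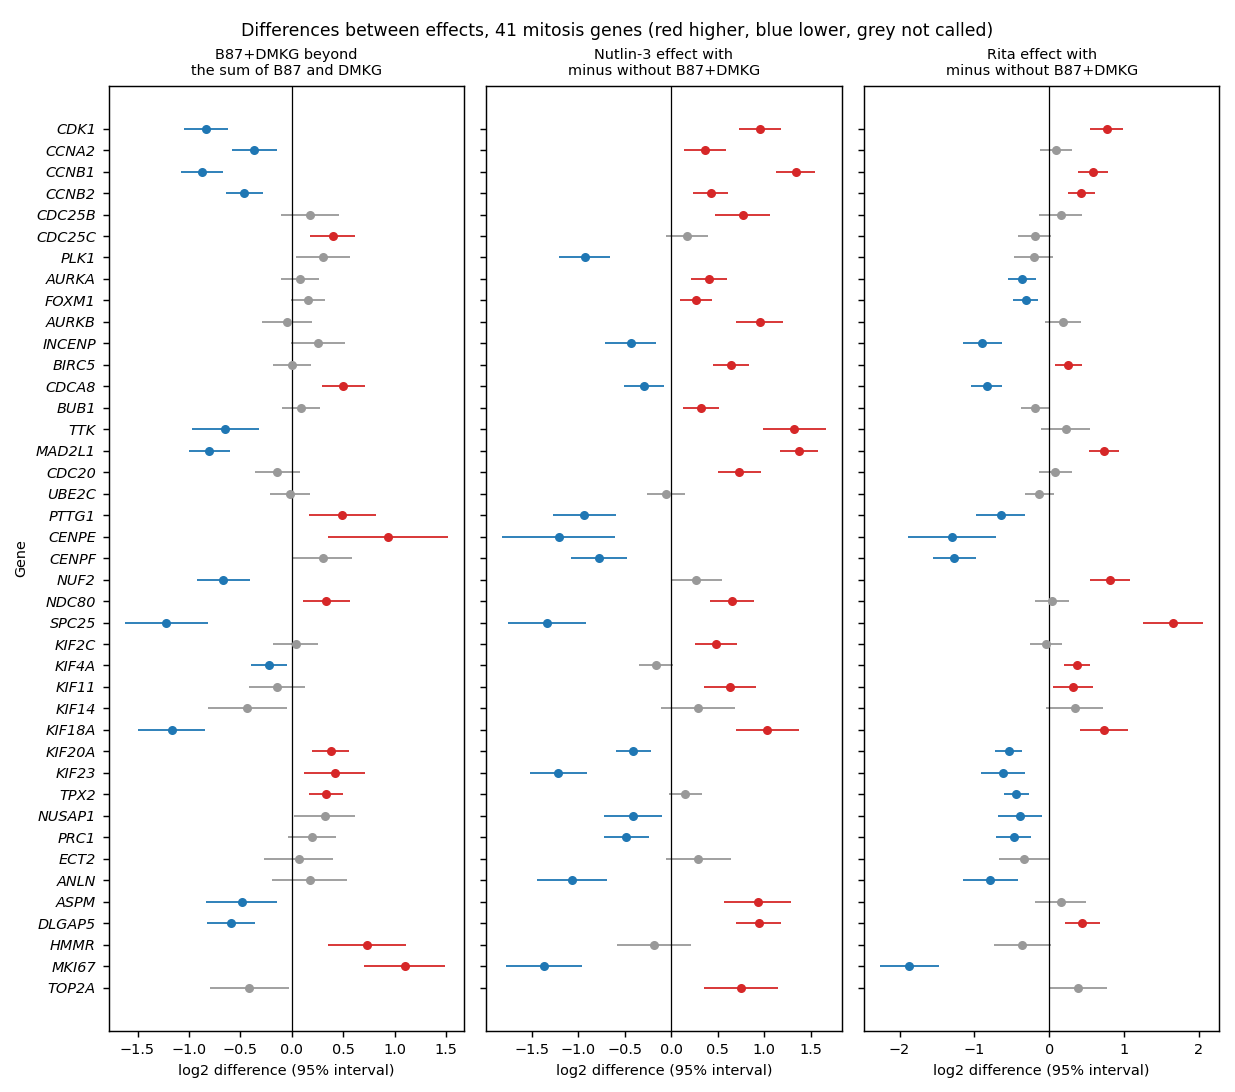
Log2 differences with 95% intervals for the 41 genes: B87+DMKG beyond the sum of its parts (left), and the effect of Nutlin-3 (middle) or Rita (right) with minus without B87+DMKG. Red is called higher, blue lower and grey not called, and SPC25 lies at -1.33 for Nutlin-3 and 1.65 for Rita.

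The 7 comparisons with Control share its 4 libraries, so their calls are set side by side and are not independent. AURKA, ASPM, BIRC5, CCNA2, KIF11 and SPC25 were each called lower in 6 treatments, the exception being B87. In each of those 6, between 20.7% (Nutlin-3) and 30.8% (B87+DMKG) of all rows were called lower. The share of all rows called alike in as many treatments was not counted. The AURKA call with B87+DMKG ended without Control replicate 3, or without B87+DMKG replicate 4 (-0.10). Leaving out 1 library also ended the SPC25 call with Nutlin-3 (above). It also ended those of ASPM with DMKG (any 1 of 5 libraries) and of BIRC5 with Rita and with B87+DMKG+Nutlin-3 (any 1 of 5 each). PTTG1 was called higher in 5: its libraries ran from 17640 to 25812 with B87+DMKG, 18264 to 24218 with Nutlin-3 and 17888 to 25868 with Rita, against 12812 to 14824 in Control. It was at 16590 to 19421 with B87+DMKG+Nutlin-3 and 20056 to 21074 with B87+DMKG+Rita, so none of the 5 groups overlapped with Control. The calls with B87+DMKG, Nutlin-3 and B87+DMKG+Nutlin-3 were lost with the mitochondrial share as a term, and the last of these also with equal totals. HMMR, a spindle-binding protein, was called in none of the 7. BUB1 was called higher in 3 and lower in 3. By role, the centromere and kinetochore genes were all 5 lower with B87+DMKG+Rita (NUF2 not without Control replicate 3 or B87+DMKG+Rita replicate 4), and 6 of the 7 kinesins were lower there, where 30.7% of all rows were called lower. The checkpoint and anaphase genes were higher in 4 of 6 with B87+DMKG+Nutlin-3 and lower in none, against 28.3% of all rows higher and 29.7% lower. Of those 4, PTTG1 and UBE2C were not called with equal totals, nor PTTG1 with the mitochondrial share as a term.

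**Figure D4:**
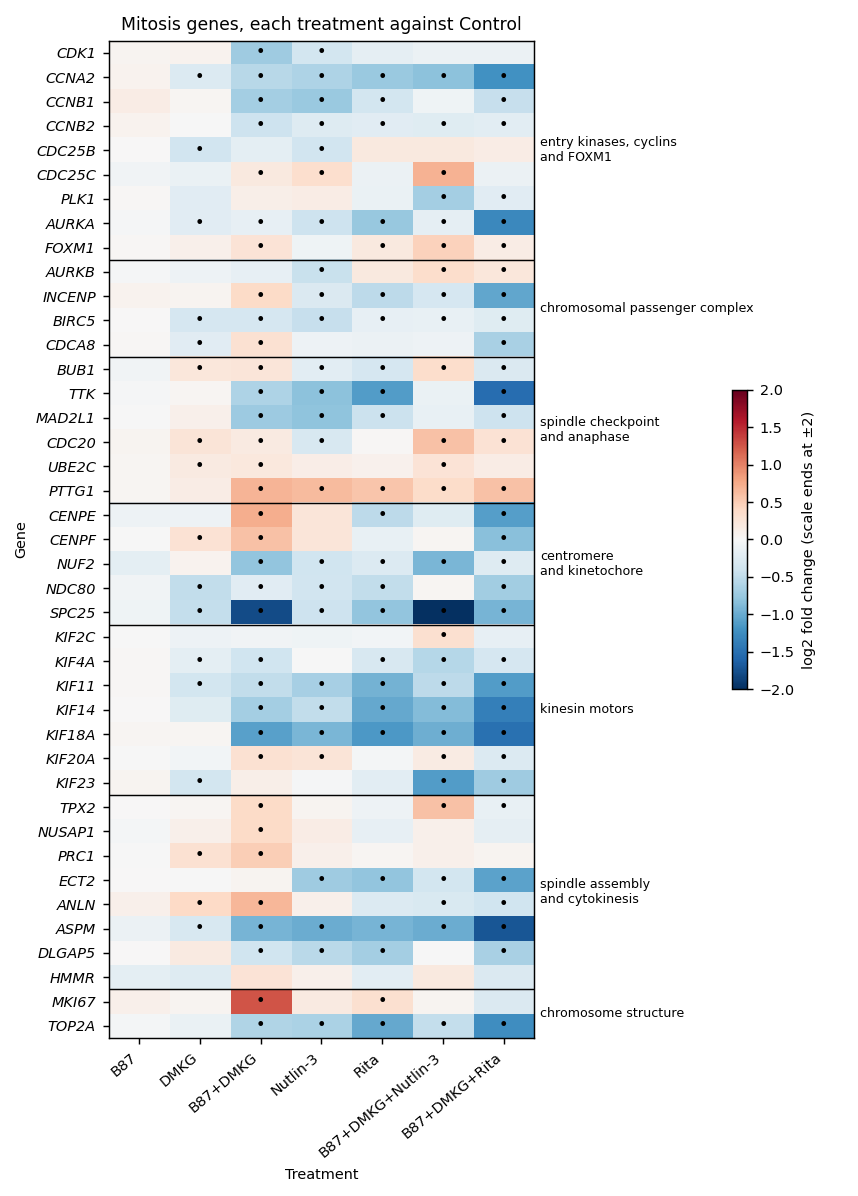
Log2 fold changes of the 41 genes (rows, by role) in each treatment against Control (columns), on a colour scale that ends at 2 in either direction, with a dot where limma called the gene. The B87 column has no dot, and the B87+DMKG+Rita column has 32.

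Transcript length went with the change in some comparisons. Over the 41 genes, the log2 fold change of B87+DMKG+Rita against B87+DMKG had a Spearman correlation of -0.63 with the length of the longest transcript, against -0.33 over 11799 genes with a length. CENPE, CENPF, MKI67 and ASPM, whose longest transcripts are 8612, 10307, 12678 and 10887 nucleotides, were all lower there. For Rita against Control the correlation with gene span was -0.50 over the members and -0.56 over all genes. For Nutlin-3 against Control the correlation over the members was -0.02 with span and -0.11 with transcript length. When Nutlin-3 was added to B87+DMKG, the correlation with transcript length was -0.32 over the members and -0.33 over all genes. Genes are not independent replicates and share the same libraries, so these are descriptions, and the part of length in the member changes was not tested.

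**Figure D5:**
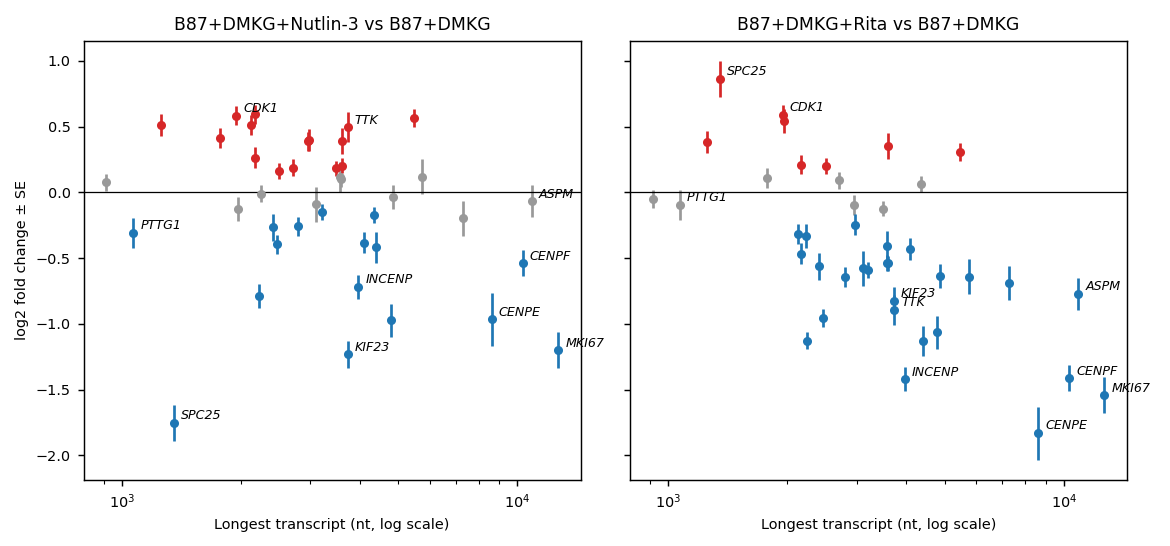
Log2 fold change with standard error against the longest transcript of each of the 41 genes (nucleotides, log axis) when Nutlin-3 (left) or Rita (right) was added to B87+DMKG. Red is called higher, blue lower and grey not called. On the right CENPE, CENPF and MKI67, of 8612 to 12678 nucleotides, are 3 of the 4 lowest.

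Regulators of these genes were measured in the same libraries. Of 23 tested MuvB, DREAM and E2F regulators, 4 rose and 7 fell with Nutlin-3 (all rows: 18.5% higher and 20.7% lower). With Rita 7 rose and 9 fell (25.8% and 26.3%), and with B87+DMKG 7 rose and 10 fell (30.2% and 30.8%). The genes below are a selection of regulators. CDKN1A, the p53 target that inhibits cyclin-dependent kinases, was at 80394 to 91711 with Nutlin-3 and 27938 to 30468 with Rita against 4173 to 4669 in Control (log2 fold changes 4.25 ± 0.11 and 2.73 ± 0.10). It was at 43372 to 51535 with B87+DMKG+Nutlin-3 and 32238 to 34338 with B87+DMKG+Rita, and at 4706 to 6428 with B87+DMKG (0.31 ± 0.10). E2F7, a repressor of the E2F family, rose with Nutlin-3 (1.13 ± 0.15) and Rita (0.77 ± 0.14) and was not called in either triple treatment. E2F1 fell with Nutlin-3 (-0.62 ± 0.08) and rose with Rita (1.00 ± 0.07). RBL1, a pocket protein of the DREAM complex, fell by 1.20 with Rita. LIN54, the MuvB subunit that binds CHR elements, rose by 0.58 with Nutlin-3 and fell by 0.64 with Rita. MYBL2, the B-MYB activator of the same genes, rose by 0.33 with B87+DMKG. WEE1, the kinase that holds CDK1 inactive, fell with B87+DMKG (-0.85 ± 0.09), Nutlin-3 (-1.02 ± 0.10), Rita (-0.50 ± 0.09), B87+DMKG+Nutlin-3 (-1.89 ± 0.09) and B87+DMKG+Rita (-0.49 ± 0.09).

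Other genes of the same machinery came from 6 lists, whose counts were not repeated under the alternative settings. Of 32 tested kinetochore and centromere genes that are not members, 19 rose and 3 fell when Nutlin-3 was added to B87+DMKG, where 26.5% of all rows were higher and 32.3% lower. Their median was 0.33 against -0.05 for all rows. Of the 5 centromere and kinetochore members, 1 rose and 3 fell in that comparison, with a median of -0.54. OIP5, which helps load the centromeric histone, rose by 1.26 ± 0.13 there. Of 17 condensin and cohesin genes 12 fell and 2 rose with Rita, with a median of -0.56, where 26.3% of all rows were lower, 25.8% higher and the median 0.03. With B87+DMKG+Rita 12 fell and 1 rose, against 30.7% of all rows lower and 29.4% higher. PDS5B, a cohesin regulator, fell with both (-2.34 ± 0.19 and -2.74 ± 0.19), and the cohesin loader NIPBL was at -1.73 ± 0.18 with B87+DMKG+Rita. Of 14 genes of the anaphase-promoting complex and its regulators, 8 fell and 1 rose with B87+DMKG, where 30.8% of all rows were lower and 30.2% higher. FBXO5, an inhibitor of the complex, fell by 1.17 ± 0.11. With Nutlin-3 added to B87+DMKG 7 of these 14 rose and 1 fell, against 26.5% and 32.3% of all rows.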

How the data were processed

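Poly(A) RNA-seq of 31 libraries in 8 groups was deposited as 1 table of normalized reads per gene row. This signal was scaled by the authors, and the values themselves show whole reads divided by 1 number per library. The submitters' processing notes list DESeq2, STAR 2.4.0, SAMtools, Picard and FastQC. The notes name build mm10, whereas the table's header names hg19 and its genes are human. Whether counting used strand is not given in the sources used here. Rows with a mean of at least 10 over the libraries (16259 rows) were put on the log2(value + 1) scale and fitted in 1 limma 3.58.1 model (R 4.3.3) with all 8 groups and no covariate, which left 23 residual degrees of freedom. Each of 14 comparisons was adjusted by Benjamini-Hochberg over all rows and called under 0.05.

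In all 31 columns every value was a whole multiple of 1 step (within 0.1 of a step, largest distance 0.00147), which gave whole reads for edgeR 4.0.16 and DESeq2 1.42.0 as alternatives. In 2 columns that step is close to 1. Even numbers made up 55.8% to 59.2% of recovered counts below 1000. Scripts were tested on simulated data. Named genes were any member, the 8 genes CDK1, CCNB1, PLK1, MKI67, TOP2A, FOXM1, CDC20 and BIRC5 in each comparison, up to 6 of the largest called changes each way, up to 4 called genes of each list, and fixed regulators. Members and lists were chosen with earlier results of these data known, and SPC25, CENPE, TTK, MAD2L1 and KIF23 were picked for detail after their values were seen. Alternatives were the pseudocount, the filter, quantile and equal-total scaling, the groups in the fit, a replicate block, and each library left out. Leaving out B87+DMKG replicates 1 and 2 and adding the mitochondrial share as a term were chosen after seeing the data. Replicate numbers came from the labels and did not pair the samples: same-numbered libraries had no group pair with every correlation above 0.1.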

Additional observations from a re-analysis of the deposited data

Results flagged for a closer look

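Single libraries stood far from the other 3 of their group for 17 of 287 sets of a member and a group, where chance alone flags about 1 in 20. The gap to the nearest library is given as a share of the group's range (Dixon's 95% limit for 4 samples applied). B87 replicate 4, the shallowest library, was the highest for CCNA2 (0.883), CDK1 (0.901), ECT2 (0.881), KIF18A (0.851) and TTK (0.908), and B87 replicate 2 was the highest for FOXM1 (0.8293). Rita replicate 4 was the lowest for CDC25B (0.894), CDK1 (0.858), DLGAP5 (0.8292) and NUF2 (0.901), and the highest for HMMR (0.913) and PLK1 (0.947). B87+DMKG+Rita replicate 4 was the lowest for CCNB1 (0.936) and replicate 1 the highest for CDCA8 (0.864). ASPM was lowest in B87+DMKG replicate 4 (0.891), KIF4A in B87+DMKG+Nutlin-3 replicate 3 (0.963), and AURKB was highest in Control replicate 2 (0.838).

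Effects differed between settings in limma's tests of the difference itself. B87+DMKG departed from the sum of its parts in 22 members (53.7%, against 48.8% of all rows). The log2 departure was -0.83 for CDK1, -0.87 for CCNB1, 1.10 for MKI67, -1.22 for SPC25, 0.94 for CENPE, -0.65 for TTK, -0.80 for MAD2L1 and 0.42 for KIF23. The effect of Nutlin-3 with B87+DMKG differed from its effect alone in 33 members (80.5%, against 56.9% of all rows). That difference was 0.95 for CDK1, 1.33 for CCNB1, 0.75 for TOP2A, 0.27 for FOXM1, 0.73 for CDC20, 0.65 for BIRC5, 1.32 for TTK and 1.38 for MAD2L1. It was negative for PLK1 (-0.93), MKI67 (-1.37), SPC25 (-1.33), CENPE (-1.21) and KIF23 (-1.21). The effect of Rita differed in 25 members (61.0%, against 48.6% of all rows). The difference was 0.77 for CDK1, 0.58 for CCNB1, 0.26 for BIRC5, 1.65 for SPC25 and 0.73 for MAD2L1, with the call of BIRC5 lost without Control replicate 2. It was negative for MKI67 (-1.87), FOXM1 (-0.31), CENPE (-1.30) and KIF23 (-0.62).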

How the results depend on the processing

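Counts of members called kept within 1.5 times of the reported value except in 3 cases: DMKG against Control had 7 calls without DMKG replicates 3 and 4, the Rita difference had 16 with the mitochondrial share as a term, and Nutlin-3 against Rita ranged from 14 (without Nutlin-3 replicate 2) to 24 over single libraries left out. Calls among all rows fell there too, from 6725 to 5023, from 7897 to 6336 and from 8321 to 7208. Equal totals moved the median of all rows to between -0.25 (B87+DMKG+Rita against Control) and 0.13 (beyond the sum), and so turned KIF20A in B87+DMKG+Nutlin-3 against Control (-0.0021). They also turned PRC1 (-0.20), AURKB (-0.037) and FOXM1 (-0.11) in B87+DMKG+Rita against Control, and CCNB2 (-0.041), BIRC5 (-0.15), CCNB1 (-0.031) and KIF4A (-0.18) in B87+DMKG+Rita against B87+DMKG. Quantile normalization turned CCNB1 there too (-0.015). The mitochondrial term, added after the data were seen, turned NUSAP1 (-0.069), KIF23 (-0.33), PLK1 (-0.28) and ECT2 (-0.35) for B87+DMKG, NUSAP1 (-0.085) and PRC1 (-0.047) against DMKG, NUSAP1 (-0.23) and ANLN (-0.32) for Nutlin-3, and MKI67 (-0.30) and NUSAP1 (-0.22) for B87+DMKG+Nutlin-3. Beyond the sum it turned KIF23 (-0.043), and in the Nutlin-3 and Rita differences NUSAP1 (0.076 and 0.12). Other causes were not tested. With a replicate block, although the numbers do not pair the samples, 33 members were called with B87+DMKG, 26 with Nutlin-3 and 24 with Rita, and 4 calls over all comparisons were lost and 0 gained. Over 574 values of a member in a comparison, edgeR lost 5 calls and gained 7, and DESeq2 lost 1 and gained 9. Without a filter on low values 23 calls were lost and 0 gained (Nutlin-3 against Rita went from 24 to 18 members), and with a mean of at least 50, 7 were gained and 0 lost. The part of depth in these calls was not tested.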

Other observations

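Genes of G1 and entry into the cell cycle form a list outside the members. When Rita was added to B87+DMKG, 12 of 17 tested genes of G1 and entry control rose and 2 fell, with a median of 0.37 against 0.00 for all rows, of which 33.1% were higher and 34.2% lower. With B87+DMKG against Control 1 rose and 10 fell (median -0.36), where 30.2% of all rows were higher and 30.8% lower. With Rita alone 6 rose and 3 fell (median 0.13), where 25.8% of all rows were higher and 26.3% lower. CCNE1 and CCNE2, the E-type cyclins of S phase entry, fell by 1.95 and 2.37 with Nutlin-3, and CCNE1 rose by 0.66 with Rita. CCND1, the cyclin of the G1 phase, fell by 1.61 with DMKG, and CCNG2, a cyclin linked to arrested cells, rose by 3.04. Of 27 tested spindle and cytokinesis genes that are not members, 15 fell and 3 rose with Nutlin-3, where 20.7% of all rows were lower and 18.5% higher. With B87+DMKG+Rita 16 fell and 5 rose, where 30.7% of all rows were lower and 29.4% higher.

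The 2 listed genes without a row of their own were measured only in combined rows, whose reads cannot be assigned to either gene. The row BUB1B // PAK6, which holds a checkpoint protein, was at 10866, 10089, 11178 and 10678 in Control, 6162, 6002, 6245 and 6015 with Rita and 5232, 5401, 5160 and 5011 with B87+DMKG+Rita. Every library of both Rita groups was below every Control library. The row CENPA // SLC35F6, which holds the centromeric histone, was at 1587, 1708, 1579 and 1561 in Control, 1101, 1285, 1032 and 942 with DMKG and 1758, 1939, 1926 and 1979 with B87+DMKG+Nutlin-3. These groups did not overlap either.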
